A study of Mus musculus with 15 samples.

Results

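The transcription factors that drive epithelial-mesenchymal transition (EMT), and lineage factors of mesenchymal cells, were followed in Mouse Embryonic Fibroblasts (MEFs) treated by 4 cytokines. The 9 genes were Snai1, Snai2, Twist1, Twist2, Zeb1, Zeb2, Prrx1, Foxc2 and Tcf21, out of 23462 genes named on the array. They were chosen by name, as the genes whose RefSeq transcripts the array's probes target, and not by a cut on their values. Earlier results of these data were known when they were chosen. They carried 13 probes, of which 12 were tested. To be tested, a probe had to be well above background on all arrays of some group. Tcf21 did not pass, and each of the other 8 genes had a probe above background on all 15 arrays.

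The MEFs were 3T3 cells, an established fibroblast line of Balb/c mouse embryos (clone A31), so every group came from 1 immortalised clone and no animal was sampled. Expression was read on 15 one-color microarrays, 3 per group. The controls received no cytokine. The other groups received TNFα at 10 ng/ml, TGFß1 at 5 ng/ml, IL-1β at 1 ng/ml, or IL-6 at 20 ng/ml together with its soluble receptor sIL-6Rα at 25 ng/ml. All groups grew in the same serum-containing medium. The control, TNFα and TGFß1 arrays are, per the methods, of 24 h cultures from 3 independent experiments. For the IL-1β and IL-6/sIL-6Rα arrays the labels name 24 or 72 h without saying which. If it was 72 h, cytokine and culture time cannot be told apart in comparisons that involve these arrays. An array is named by its condition and its label number, and values are given in the order of these numbers.

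EMT is the process in which cells of a sheet lose their junctions and take on the shape and motility of mesenchymal cells. Its core regulators are zinc finger proteins of the SNAIL family (Snai1, Snai2), basic helix-loop-helix proteins of the TWIST family (Twist1, Twist2) and zinc finger homeobox proteins of the ZEB family (Zeb1, Zeb2). SNAIL and ZEB proteins bind E-boxes in promoters such as that of E-cadherin and repress them. Fibroblasts are mesenchymal already and express most of these factors without any transition, so their levels here describe a fibroblast and not a cell that passed through EMT.

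A level is the log2 signal of a probe minus the 75th percentile of the log2 signals of its array, so that 0 stands for the 75th percentile and each unit for a doubling. Levels are compared between arrays for 1 probe at a time, never between probes. A difference between groups was called where limma, fitted to all 15 arrays, gave a Benjamini-Hochberg adjusted p under 0.05 over 29333 probes and a fold-change of at least 1.5, which is 0.58 on the log2 scale. For the IL-1β and IL-6/sIL-6Rα arrays nothing says that they came from separate cultures, so p-values there measure only the spread between arrays, which may be technical. All comparisons share 1 estimate of spread per probe, to which these arrays contribute. The limit therefore reaches the p-values of TNFα and TGFß1 too. In RNA from whole cultures, fewer cells that express a gene and less RNA per cell cannot be told apart.

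The arrays were read first for their cell type and treatment. All 8 fibroblast markers of a list (Col1a1, Col1a2, Col3a1, Pdgfra, Pdgfrb, Thy1, Vim and S100a4) stood above background on the 15 arrays. The epithelial markers Cdh1 and Krt5, the endothelial markers Cdh5, Kdr and Tek, the leukocyte markers Ptprc, Adgre1 and Lyz2, and all 4 skeletal muscle markers were above background on none. Among other markers of these lists, those detected included Pecam1 (endothelial) and Cd3e and Cd68 (leukocyte) on all 15 arrays and Krt18, Krt8, Krt14 and Epcam (epithelial) on 10, 4, 3 and 1. Each cytokine moved genes known to respond to it. Tnfaip3, an inhibitor of NF-κB signalling, rose by 3.84 on the log2 scale with TNFα and by 1.34 with IL-1β. Smad7, an inhibitor of TGFß signalling, rose by 2.00 with TGFß1, and Socs3, an inhibitor of the IL-6 receptor pathway, rose by 2.39 with IL-6/sIL-6Rα. The arrays lay on 2 slides, and arrays of a slide deviated together: the median correlation of deviations from the group mean, across probes, was 0.42 for 44 pairs of arrays of different groups on the same slide and -0.44 for 46 pairs on different slides. Each group had arrays on both slides, but unevenly. Most control, IL-1β and IL-6/sIL-6Rα arrays lay on slide 1, and most TNFα and TGFß1 arrays on slide 2. The slide is thus partly mixed with the TNFα and TGFß1 comparisons. The calls come from the fit without the slide, and values with the slide as a term of the model are given beside the results.

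The promoters of Snai1, Twist1 and Twist2 are shown because these genes had called differences both against controls and between some cytokines. Each runs from 250 bases before to 50 bases after the transcription start (RefSeq, build GRCm38.p6), and promoters of 6 of the 9 genes were used here. No promoter entry was at hand for Snai2 and Foxc2. Capitals mark matches, on either strand, to motifs for factors that these cytokines or this gene family use.
Snai1, chr2:167537945-167538244, plus strand: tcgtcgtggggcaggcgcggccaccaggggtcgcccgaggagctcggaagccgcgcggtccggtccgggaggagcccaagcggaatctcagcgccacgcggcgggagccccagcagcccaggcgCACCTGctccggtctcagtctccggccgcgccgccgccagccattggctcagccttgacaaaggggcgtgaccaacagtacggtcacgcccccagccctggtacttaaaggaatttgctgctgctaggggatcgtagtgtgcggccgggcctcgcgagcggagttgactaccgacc
Twist1, chr12:33957421-33957720, plus strand: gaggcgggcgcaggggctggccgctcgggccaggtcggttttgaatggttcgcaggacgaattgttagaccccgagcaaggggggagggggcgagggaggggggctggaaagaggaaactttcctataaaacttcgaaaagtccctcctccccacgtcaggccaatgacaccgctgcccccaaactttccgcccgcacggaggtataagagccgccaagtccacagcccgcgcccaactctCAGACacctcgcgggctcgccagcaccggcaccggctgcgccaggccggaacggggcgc
Twist2, chr1:91801211-91801510, plus strand: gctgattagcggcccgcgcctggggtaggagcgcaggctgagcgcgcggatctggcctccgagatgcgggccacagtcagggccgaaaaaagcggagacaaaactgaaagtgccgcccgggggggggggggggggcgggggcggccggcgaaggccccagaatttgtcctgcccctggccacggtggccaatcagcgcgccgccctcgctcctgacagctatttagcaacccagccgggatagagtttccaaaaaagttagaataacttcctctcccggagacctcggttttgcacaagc

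The capitals in the Snai1 promoter are an E-box (CANNTG), the kind of site that SNAIL, TWIST and ZEB proteins bind, from base -126 to -121 of the start. It is of the form CACCTG, the E2-box. An E-box was present in 72.3% and an E2-box in 20.2% of the 32851 promoters of the table. The capitals in the Twist1 promoter are a SMAD element (CAGAC) from base -9 to -5, which 49.6% of promoters hold. The Twist2 window held none of the motifs searched. The Prrx1 promoter held SMAD elements at -19 to -15 and, on the other strand, at 39 to 43. No match to the kappaB motif (8.46% of promoters), to the AP-1 motif TGANTCA (7.81%) or to the STAT motif TTCNNNGAA (8.3%) lay in the 3 windows shown. Genes without a called change against controls held matches too. Zeb2, with 4 windows, had AP-1 matches at -189 to -183 and -132 to -126 in 1 of them. Other Zeb2 windows, which overlap, had a STAT match (TTCTGTGAA). Tcf21, above background on no array, had 3 SMAD elements on the other strand. Every E2-box is also an E-box, and the matches are a description of the letters.

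TNFα and TGFß1 moved members of this group in both directions, and IL-1β and IL-6/sIL-6Rα moved none past the threshold. With TNFα, Twist2 rose and Snai1 and Twist1 fell. With TGFß1, Zeb1 rose and Snai2, Twist1 and Twist2 fell. So Twist1 was lower with both cytokines and Twist2 went opposite ways. Whether the probe of one reads transcripts of the other was not tested. All 4 comparisons share the same 3 controls. The 3 calls among 8 tested genes with TNFα (1 higher, 2 lower) stood against 10.2% of all probes called (4.12% higher, 6.06% lower). The 4 calls with TGFß1 (1 higher, 3 lower) stood against 18% (7.17% higher, 10.8% lower). The median log2 fold-change of the 8 genes was 0.36 with TNFα and -0.24 with TGFß1, where the medians of all probes were 0.04 and 0.05.

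For IL-1β and for IL-6/sIL-6Rα, limma called 0 of the 8 genes, where 0.252% and 0.0648% of all probes were called. In both comparisons 2 of the 8 genes had an unadjusted p under 0.05, as did 3.71% of all probes with IL-1β and 3.26% with IL-6/sIL-6Rα. The count was 0 under all 28 alternatives of each comparison as well.

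**Figure D1:**
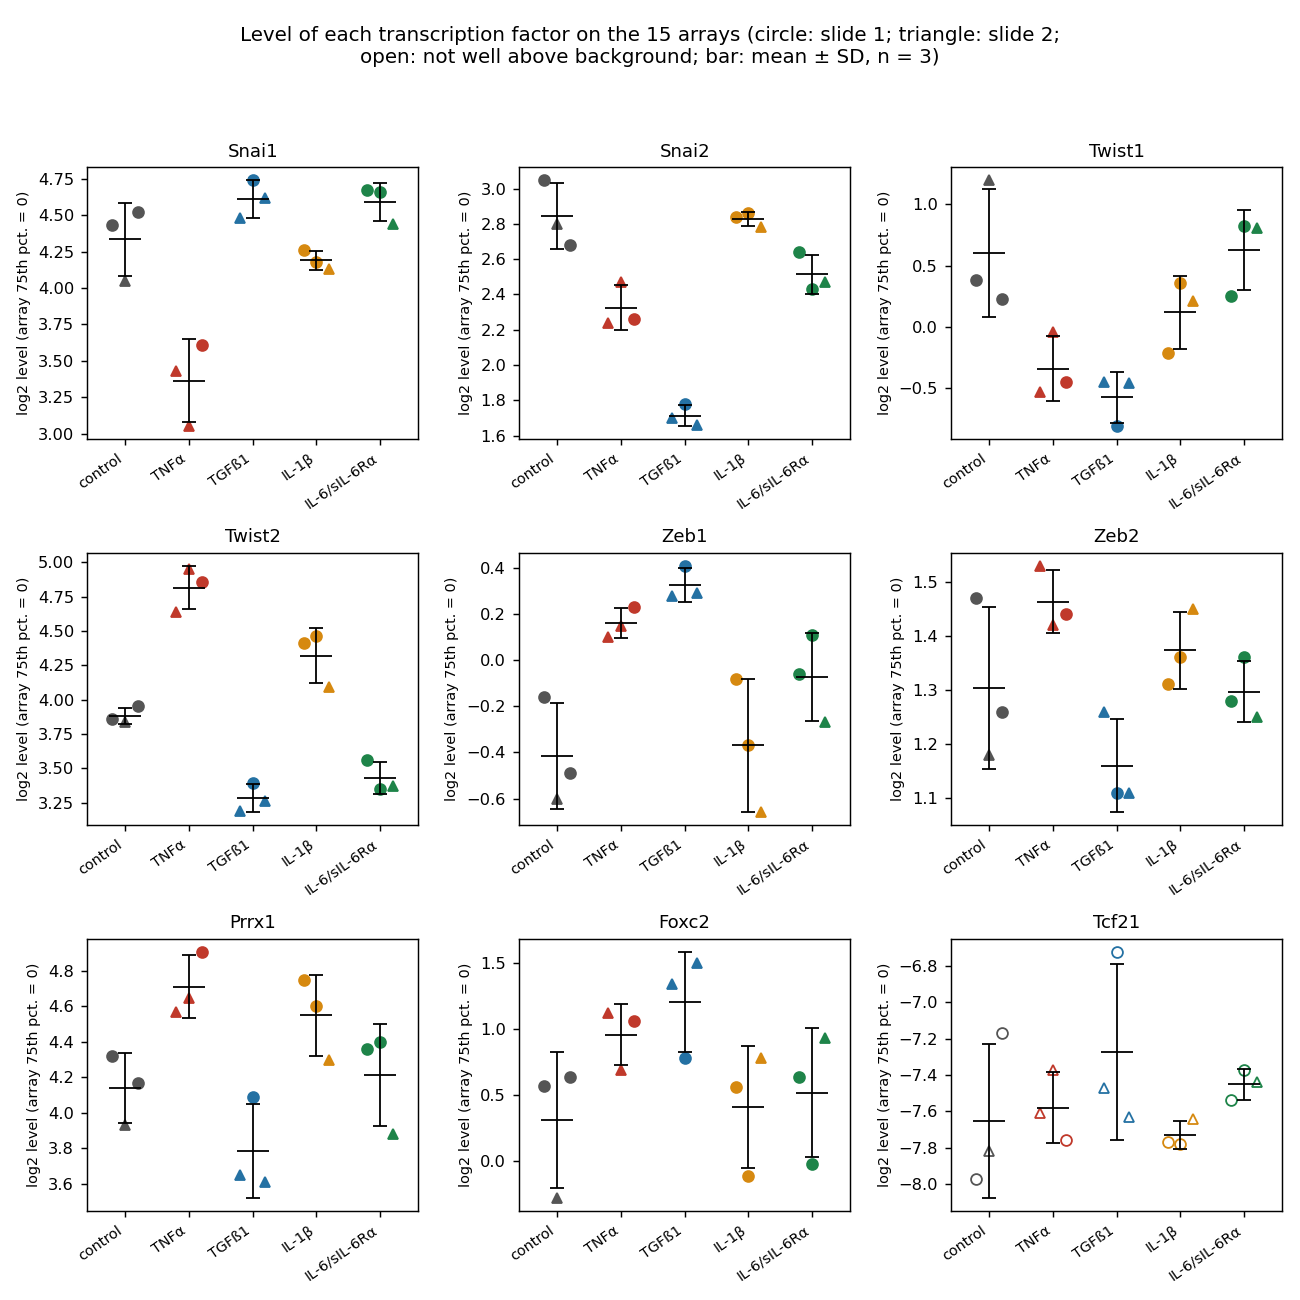
Level (log2 signal, array 75th percentile set to 0) of each factor's brightest probe on the 15 arrays by group. Points are arrays, circles lie on slide 1 and triangles on slide 2, open points are not well above background, and bars are the mean ± SD (n = 3). The TNFα arrays lie below all others for Snai1 and above all others for Twist2, the TGFß1 arrays lie below all others for Snai2, and every Tcf21 point is open.

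Snai1 (NM_011427) encodes the founding member of the SNAIL repressors. Its control levels were 4.43 (array 1), 4.05 (array 6) and 4.52 (array 11). With TNFα they were 3.43, 3.05 and 3.61 (arrays 4, 9 and 14). The highest TNFα array lay below the lowest control, and below every TGFß1, IL-1β and IL-6/sIL-6Rα array too. The log2 fold-change was -0.97 ± 0.16 (SE, n = 3 per group), 1.96-fold lower, with an adjusted p of 0.0018. With the slide in the model it was -0.88, and within slide 1 and slide 2 alone the group means differed by -0.86 and -0.81.

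TGFß1, often named as an inducer of Snai1, gave 4.48, 4.74 and 4.62 (arrays 2, 7 and 12), a range that overlapped the controls. The difference of 0.28 ± 0.16 was not called (adjusted p = 0.229), and its 95% interval ran from -0.07 to 0.63. With the slide in the model it was 0.37 with an adjusted p of 0.0251, still under the fold-change of 1.5. The IL-1β arrays read 4.26, 4.18 and 4.13 and the IL-6/sIL-6Rα arrays 4.67, 4.66 and 4.44. Their differences from the controls were -0.14 (95% interval -0.49 to 0.20) and 0.25 (-0.09 to 0.60). From the lowest mean to the highest the groups stood in the order TNFα, IL-1β, control, IL-6/sIL-6Rα and TGFß1, and of the neighbours only TNFα and IL-1β differed by a called amount (0.83).

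Snai2 (NM_011415), the SNAIL protein also known as Slug, followed another cytokine. Its levels were 3.05, 2.80 and 2.68 in controls and 1.70, 1.78 and 1.66 with TGFß1. All 3 TGFß1 arrays lay below every other array. The log2 fold-change was -1.13 ± 0.11, 2.19-fold lower, with an adjusted p of 3.57e-05, and it was -1.08 within slide 1 and -1.13 within slide 2.

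With TNFα the Snai2 levels were 2.24, 2.47 and 2.26, again with no overlap with the controls. The difference of -0.52 ± 0.11 had an adjusted p of 0.0102 but stayed under the fold-change of 1.5, so it was not called. It was called without control 11 (-0.60) and without TNFα 9 (-0.59). The IL-1β arrays (2.84, 2.86 and 2.78) lay within the range of the controls. The IL-6/sIL-6Rα arrays (2.64, 2.43 and 2.47) all lay just below it, and their difference of -0.33 (95% interval -0.58 to -0.08) had an adjusted p of 0.995. The order of means was TGFß1, TNFα, IL-6/sIL-6Rα, IL-1β and control, with a called step of 0.61 between TGFß1 and TNFα and none above it.

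Twist1 (NM_011658), a basic helix-loop-helix factor of cranial and limb mesenchyme, was uneven among controls. The levels there were 0.38, 1.20 and 0.23, with control 6 far above the other two. With TNFα they were -0.53, -0.04 and -0.45, and with TGFß1 they were -0.45, -0.81 and -0.46. All 6 of these arrays lay below the 3 controls.

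The log2 fold-change of Twist1 was -1.18 ± 0.26 with TGFß1 (adjusted p = 0.0064) and -0.94 ± 0.26 with TNFα (adjusted p = 0.0325). With the slide in the model the values were -1.30 and -1.06, both called. Within slide 1 the differences were -1.12 and -0.75, and within slide 2, whose only control is control 6, -1.65 and -1.48. Without control 6 the TGFß1 difference was -0.88 and still called, whereas the TNFα difference was -0.64 and no longer called. The TNFα call was also lost without TNFα 4 (-0.85), without TNFα 14 (-0.89), under normexp background correction (-0.79), with no filter on dim probes, and in a fit of the 9 control, TNFα and TGFß1 arrays. Over its 28 alternatives the adjusted p ran from 0.000452 to 0.126.

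The IL-1β arrays of Twist1 read -0.21, 0.36 and 0.21 and the IL-6/sIL-6Rα arrays 0.25, 0.82 and 0.81. Both ranges overlapped the controls. In the order TGFß1, TNFα, IL-1β, control and IL-6/sIL-6Rα no neighbours differed by a called amount.

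Twist2 (NM_007855), the close relative of Twist1 also known as Dermo1, was even among controls and, of the 8 tested factors, had the widest range of group means. Its levels were 3.86, 3.84 and 3.95 in controls. They were 4.64, 4.95 and 4.86 with TNFα and 3.19, 3.39 and 3.26 with TGFß1. All TNFα arrays lay above and all TGFß1 arrays below the controls.

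The log2 fold-change of Twist2 with TNFα was 0.94 ± 0.13, 1.91-fold higher, with an adjusted p of 0.000418, and it was called in all 28 alternatives. With TGFß1 it was -0.60 ± 0.13, 1.52-fold lower, with an adjusted p of 0.00438, just past the fold threshold. With the slide in the model the TGFß1 value was -0.55 (adjusted p = 0.00234) and fell short of the fold-change of 1.5. It did so too under subtraction of the array median (-0.58), without control 11 (-0.57) and without TGFß1 2 (-0.56). Its direction was the same within slide 1 (-0.52) and slide 2 (-0.62).

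IL-1β and IL-6/sIL-6Rα also parted for Twist2. The IL-1β arrays read 4.41, 4.46 and 4.09, all above the controls, and the IL-6/sIL-6Rα arrays 3.56, 3.35 and 3.37, all below them. Neither differed from the controls by a called amount (0.44 and -0.46, adjusted p = 0.455 and 0.571), but they differed from each other by 0.89 ± 0.13 (adjusted p = 0.00778). The order was TGFß1, IL-6/sIL-6Rα, control, IL-1β and TNFα, in steps of 0.15 to 0.50 of which none was called.

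**Figure D2:**
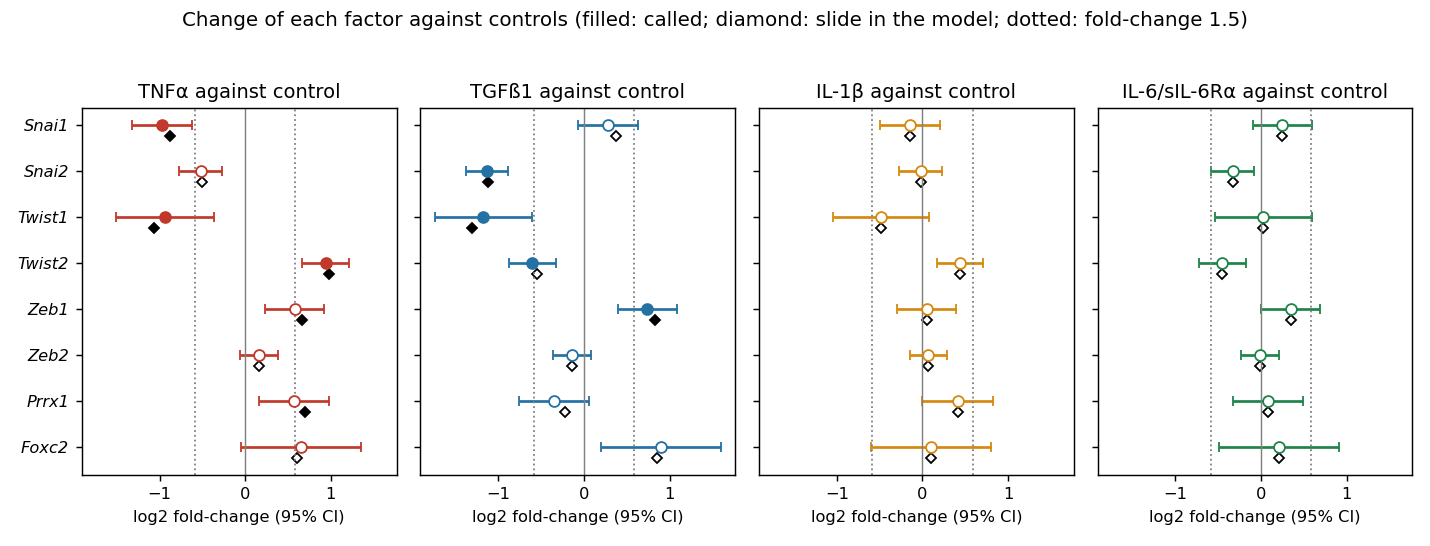
Log2 fold-change of the 8 tested factors against controls for each cytokine, with 95% intervals from limma. Filled circles are called, diamonds give the value with the slide in the model (filled where called), and dotted lines mark a fold-change of 1.5. Twist2 is right of the upper line with TNFα and on the lower line with TGFß1, and no circle is filled for IL-1β or IL-6/sIL-6Rα.

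Zeb1 (NM_011546), a zinc finger homeobox repressor, was read by a pair of probes, both of which were lowest in controls and highest with TGFß1. On the brighter probe the controls read -0.16, -0.60 and -0.49 and the TGFß1 arrays 0.28, 0.41 and 0.29. All TGFß1 arrays lay above all controls. The log2 fold-change was 0.74 ± 0.16, 1.67-fold higher, with an adjusted p of 0.00516, and the dimmer probe gave 0.95 ± 0.16 (adjusted p = 0.00146).

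With TNFα the brighter Zeb1 probe read 0.10, 0.15 and 0.23, also above every control. Its difference of 0.58 ± 0.16 had an adjusted p of 0.0309 and fell just short of the fold-change of 1.5. The dimmer probe was called with TNFα (0.73 ± 0.16, adjusted p = 0.0116), and so was the mean of both probes (0.65). Including the slide, both probes were called (0.66 and 0.69). TNFα and TGFß1 did not differ by a called amount for Zeb1 (-0.17, 95% interval -0.51 to 0.18). On the brighter probe the IL-1β arrays (-0.08, -0.37 and -0.66) and the IL-6/sIL-6Rα arrays (-0.06, 0.11 and -0.27) overlapped the controls. The brighter probe was lower on slide 2 in all 5 groups, and the TGFß1 difference was 0.74 within slide 1 and 0.89 within slide 2. The TNFα differences there were 0.56 and 0.73. Without control 1 the TNFα difference was 0.71 and called.

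Zeb2 (NM_015753), the other ZEB protein, was called in no comparison in the fit without slide or run. Its brightest probe read 1.47, 1.18 and 1.26 in controls, 1.53, 1.42 and 1.44 with TNFα, and 1.26, 1.11 and 1.11 with TGFß1. Every group mean on it lay between 1.16 and 1.46. The differences were 0.16 with TNFα (adjusted p = 0.349) and -0.14 with TGFß1 (adjusted p = 0.331). Another probe gave 0.13 and -0.24. The dimmest probe, at -5.28 to -3.73, was close to background, where the lowest level above background on an array was -5.72 to -4.99, and it was above background on 13 of 15 arrays. Including the slide, this probe was called lower with TGFß1 than with IL-1β (-0.67, adjusted p = 0.00658) and IL-6/sIL-6Rα (-0.69, adjusted p = 0.00563), where the values without it were -0.43 and -0.46.

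Prrx1, a homeobox factor of limb and skeletal mesenchyme, was read by probes for different transcripts, NM_001025570 (brighter) and NM_175686 (dimmer). On the brighter probe the levels were 4.32, 3.93 and 4.17 in controls, 4.57, 4.65 and 4.91 with TNFα and 3.65, 4.09 and 3.61 with TGFß1. On the dimmer probe they were 2.52, 3.02 and 2.63, then 3.77, 3.81 and 3.14, then 2.53, 2.27 and 2.37. On both probes all TNFα arrays lay above all controls and all TGFß1 arrays.

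Against controls, the TNFα difference of Prrx1 was 0.57 ± 0.19 (adjusted p = 0.0669, not called) on the brighter and 0.85 ± 0.23 (adjusted p = 0.0263, called) on the dimmer probe. The slides moved the probes opposite ways. In all 5 groups the brighter probe was lower on every slide 2 array than on every slide 1 array, by 0.30 to 0.50 between means, and the dimmer probe was higher, by 0.18 to 0.65. With the slide in the model both probes gave 0.70 and both were called (adjusted p = 0.000185 and 0.00146). For TGFß1 the values with the slide were -0.22 and -0.48, and neither was called. For IL-1β they were 0.41 and 0.52, and neither was called. The IL-1β arrays read 4.75, 4.6 and 4.3 on the brighter and 3.20, 3.00 and 3.53 on the dimmer probe, which overlapped the controls on both.

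**Figure D3:**
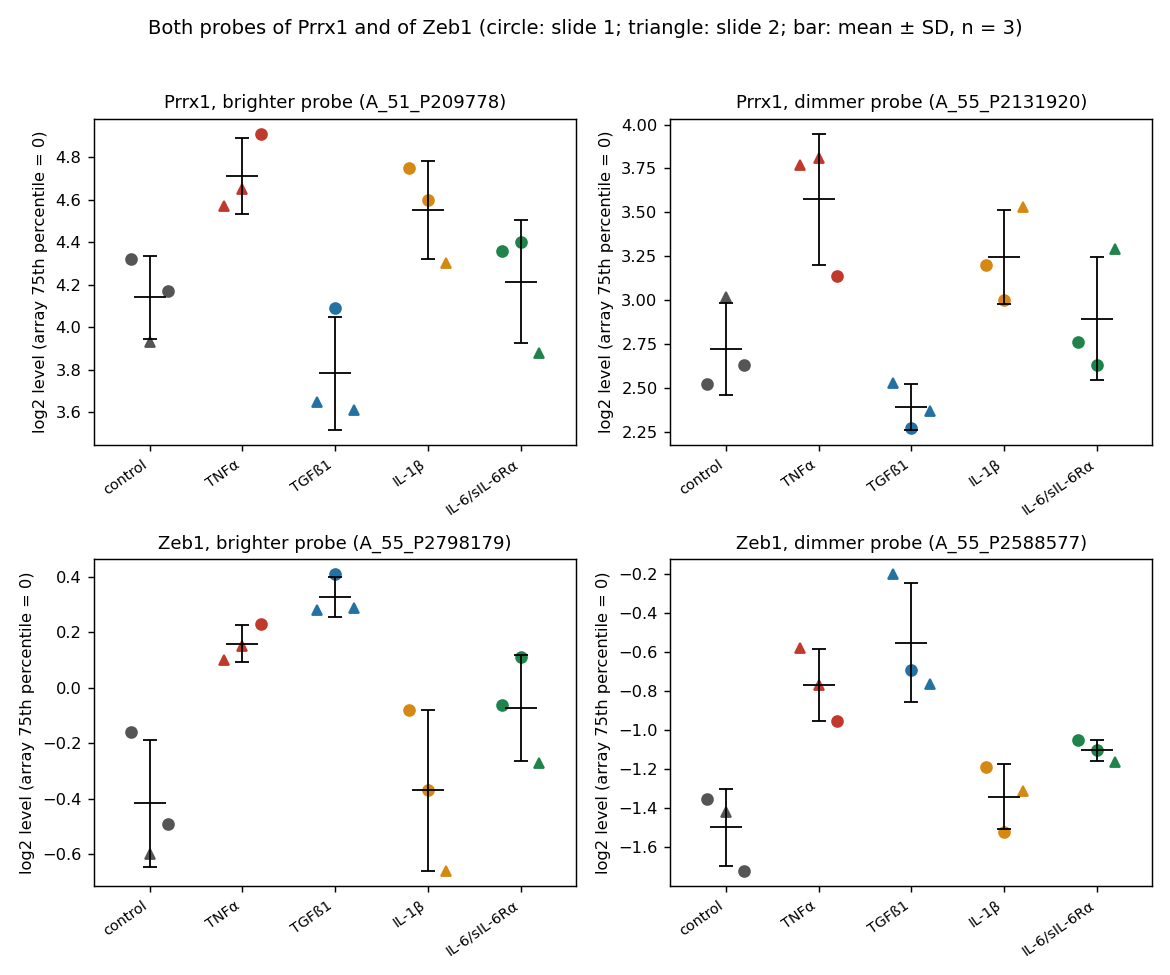
Levels of both probes of Prrx1 (upper panels) and of Zeb1 (lower panels) on the 15 arrays by group. Points are arrays (circles on slide 1, triangles on slide 2) and bars the mean ± SD (n = 3). The triangles of Prrx1 lie below the circles of their group on the brighter probe and above them on the dimmer probe, while the TNFα means stay the highest on both.

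Foxc2 (NM_013519), a forkhead factor of vessel and skeletal mesenchyme, was not called against controls, and its arrays varied by the run of label numbers. The levels were 0.57, -0.28 and 0.64 in controls, 1.12, 0.69 and 1.06 with TNFα and 1.34, 0.78 and 1.5 with TGFß1. The IL-1β arrays read 0.56, -0.11 and 0.78 and the IL-6/sIL-6Rα arrays 0.64, -0.02 and 0.93. In all 5 groups the middle array, whose label number lies between 6 and 10, was the lowest.

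All TNFα and all TGFß1 arrays lay above all Foxc2 controls, although TNFα 9 (0.69) was only just above control 11 (0.64). The differences were 0.65 ± 0.32 with TNFα (adjusted p = 0.225) and 0.90 ± 0.32 with TGFß1 (adjusted p = 0.0603). Within slide 1 they were 0.45 and 0.17, and within slide 2, where control 6 is the only control, 1.19 and 1.71. With the runs of label numbers (1 to 5, 6 to 10 and 11 to 15) as a block, the adjusted p was 0.00278 with TNFα and 0.000238 with TGFß1, and both were called. With the runs and the slide together the values were 0.63 and 0.88, both called. The TGFß1 difference was also called with a trended and robust variance (0.90), without TGFß1 7 (1.11), without IL-1β 10 (0.90) and without IL-6/sIL-6Rα 8 (0.90). The labels do not say that a run is 1 experiment. For Twist1 the middle array was the highest in 4 of 5 groups and the lowest with TGFß1.

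**Figure D4:**
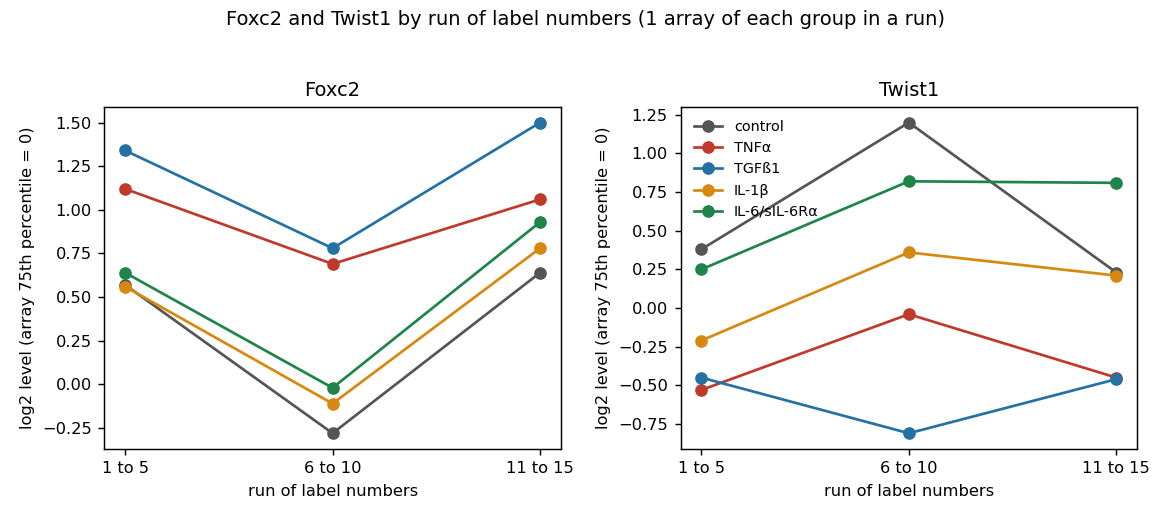
Levels of Foxc2 (left) and Twist1 (right) by run of label numbers, with 1 array of each group in a run and lines joining the arrays of a group. Foxc2 dips in the run 6 to 10 in all 5 groups, and the TGFß1 line stays above the control line in each run, while Twist1 peaks there in 4 groups.

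Tcf21 (NM_011545), a basic helix-loop-helix factor of visceral and cardiac mesenchyme, was not well above background on any of the 15 arrays. Its levels ran from -7.97 to -6.72 with a median of -7.61, below the lowest level above background on any array. A change under the background cannot be seen with this probe.

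The direct comparisons between cytokines gave 15 calls among 48 tests (8 genes, 6 pairs). Where a pair includes IL-1β or IL-6/sIL-6Rα arrays, the cytokine and a possible difference in culture time cannot be told apart. The standard errors are those given above for each gene. TNFα and TGFß1 differed for Twist2 (1.54 ± 0.13 higher with TNFα, adjusted p = 4.55e-06), Prrx1 (0.93 ± 0.19 higher), Snai2 (0.61 ± 0.11 higher) and Snai1 (-1.25 ± 0.16). These 4 of 8 genes stood against 11.8% of all probes. The Snai2 call was lost without TNFα 9 (0.54) and without TGFß1 12 (0.58). With the array median subtracted, which moved the median of all probes in this comparison from -0.02 to -0.14, the calls of Snai2 (0.49) and Prrx1 (0.81) were lost and those of Twist2 and Snai1 were not.

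TGFß1 differed from IL-1β for Snai2 (-1.11), Twist2 (-1.04), Prrx1 (-0.77) and Zeb1 (0.70), 4 of 8 genes against 17% of all probes. It differed from IL-6/sIL-6Rα for Twist1 (-1.20) and Snai2 (-0.80), 2 of 8 against 16.4%. TNFα differed from IL-6/sIL-6Rα for Twist2 (1.39), Snai1 (-1.22) and Twist1 (-0.97), 3 of 8 against 8.68%, and from IL-1β for Snai1 (-0.83), 1 of 8 against 4.83%. IL-1β differed from IL-6/sIL-6Rα for Twist2 (0.89), 1 of 8 against 0.419%. Each cytokine's arrays enter 3 of these pairs.

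Including the slide, Twist1 was called lower with TGFß1 than with IL-1β (-0.81, adjusted p = 0.0145, from -0.69). Zeb1 was called higher with TNFα than with IL-1β (0.62, adjusted p = 0.0079, from 0.53), and Prrx1 higher with TNFα than with IL-6/sIL-6Rα (0.63, adjusted p = 0.000428, from 0.50). The dimmer Prrx1 probe was called lower with TGFß1 than with IL-6/sIL-6Rα (-0.66, adjusted p = 0.00137). With the runs as a block, Foxc2 was called higher with TGFß1 than with IL-1β (0.80, adjusted p = 0.000543) and IL-6/sIL-6Rα (0.69, adjusted p = 0.00127), and the Twist1 difference between TGFß1 and IL-1β was called too (adjusted p = 0.0418). With the runs and the slide together, Twist1 was also called lower with TNFα than with IL-1β (-0.59, adjusted p = 0.0146).

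Other settings removed calls. The TNFα against IL-6/sIL-6Rα call of Twist1 was lost without TNFα 4, TNFα 14, IL-6/sIL-6Rα 8 or IL-6/sIL-6Rα 13 (-0.91 to -0.87). This call was also lost under normexp background correction (-0.86) and with no filter on dim probes (-0.97). The TGFß1 against IL-1β calls were lost for Zeb1 without IL-1β 15 (0.55) and for Prrx1 without TGFß1 12 (-0.68). With the array median subtracted, which moved the median of all probes in that comparison from 0.05 to 0.16, the Prrx1 call (-0.66) was lost too, as were TNFα against IL-1β for Snai1 (-0.84) and IL-1β against IL-6/sIL-6Rα for Twist2 (0.83).

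**Figure D5:**
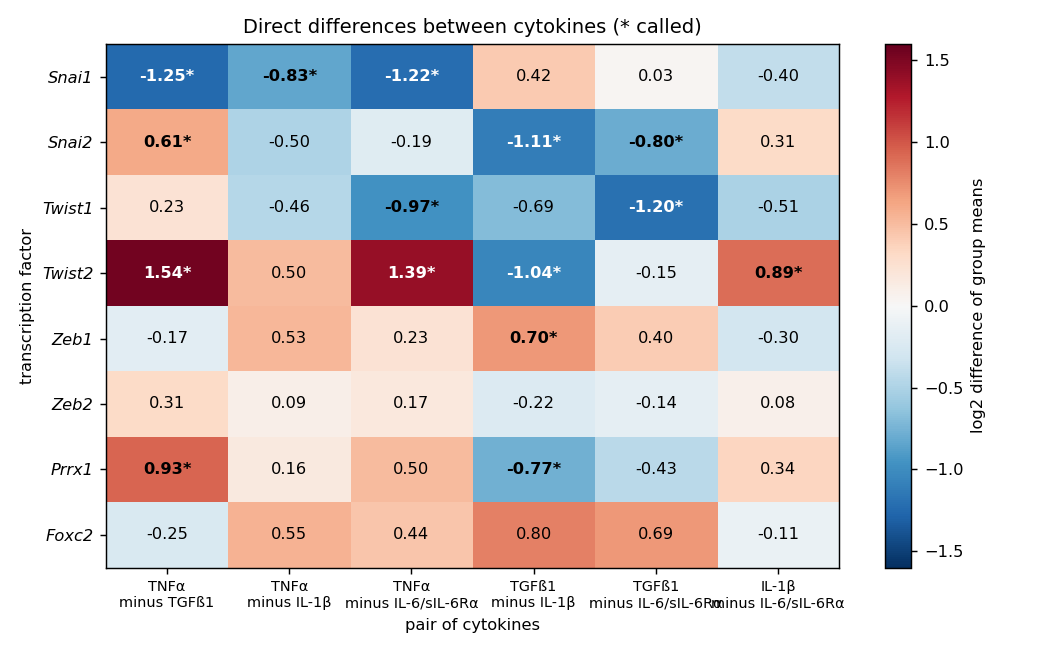
Log2 difference between the group means of each pair of cytokines for the 8 tested factors, with an asterisk where the difference was called. Colors run from lower (blue) to higher (red) in the first cytokine named. Twist2 holds called differences in 4 of the 6 pairs and Zeb2 and Foxc2 in none.

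Of 27 cofactors and regulators of these factors, all tested, 2 rose and 4 fell with TGFß1 and 2 fell with TNFα (medians 0.19 and -0.08), where 18% and 10.2% of all probes were called. The genes that fell with TGFß1 were the 4 inhibitors of DNA binding, which keep basic helix-loop-helix proteins such as TWIST and their E-protein partners off DNA. They were Id4 (-3.63 ± 0.13), Id2 (-2.33 ± 0.29), Id3 (-1.29 ± 0.24) and Id1 (-1.02 ± 0.30). With TNFα, Id4 (-2.47 ± 0.13) and Id2 (-0.94 ± 0.29) fell. The genes that rose with TGFß1 were Kdm1a (0.77), a histone demethylase that SNAIL proteins recruit, and Ctbp2 (0.63), a corepressor of ZEB proteins.

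Of 26 related transcription factors, 17 were tested. With TNFα 1 rose and 5 fell, and with TGFß1 2 rose and 6 fell, with medians of 0.01 and 0.02. Of all probes, 10.2% were called with TNFα (4.12% higher, 6.06% lower) and 18% with TGFß1 (7.17% higher, 10.8% lower). The medians of all probes were 0.04 and 0.05. Prrx2, the relative of Prrx1, fell with both (-1.41 ± 0.27 and -2.70 ± 0.27), unlike Prrx1. Tcf4, an E-protein partner of TWIST, fell with both as well (-1.01 ± 0.18 and -0.94 ± 0.18). Klf4, a Krüppel-like factor, and Osr1, an odd-skipped factor of connective tissue, fell by 2.07 and 1.98 with TGFß1 and by 0.69 and 0.70 with TNFα. Sox4 rose with TGFß1 (1.95 ± 0.29). Foxf1 rose with TNFα (0.60 ± 0.18) and fell with TGFß1 (-0.71 ± 0.18). Tbx18 was called lower with TNFα (-0.59) and Osr2 with TGFß1 (-1.66). Snai3, another SNAIL gene, was above background on no array.

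Of 22 epithelial genes that SNAIL and ZEB proteins are known to repress, or that mark epithelia, 8 were tested. Cdh1, the gene of E-cadherin, was above background on no array in any group. With TNFα 3 fell and none rose, and with TGFß1 2 rose and 1 fell, with medians of -1.56 and 0.16. Over all probes, 10.2% and 18% were called, and the medians were 0.04 and 0.05. Jup, the junction protein plakoglobin, fell by 1.68 with TNFα and rose by 1.75 with TGFß1. Krt19 and Cdh3 (P-cadherin) fell with TNFα, Krt19 by at least 7.15-fold since no TNFα array was above background, and Cdh3 by 1.62 on the log2 scale. With TGFß1 Krt19 fell by 2.55, with 2 of 3 TGFß1 arrays above background, and Krt8 was at least 3.32-fold higher than in controls, where it was above background on no array. The summed linear level of the 6 epithelial markers was 0.163 to 0.422 with TGFß1, 0.0803 to 0.16 in controls and 0.0576 to 0.0749 with TNFα, where 1 is the array's 75th percentile. Krt18 had the strongest signal of them on each TGFß1 array, and its TGFß1 change (1.77) was not called. The part of the summed level in the changes of the transcription factors was not tested.

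All 18 mesenchymal effectors were tested. The counts of this list and of the markers below stand against 10.2% of all probes called with TNFα and 18% with TGFß1. The medians of all probes were 0.04 and 0.05. With TNFα 3 fell and none rose (median -0.37), and these were the collagens Col3a1 (-2.17 ± 0.44), Col5a2 (-0.89 ± 0.24) and Col1a1 (-0.79 ± 0.21). With TGFß1 5 rose and 1 fell (median 0.40). Tagln, a smooth muscle actin-binding protein, rose by 1.68, the fibronectin receptor chains Itga5 and Itgb1 by 1.57 and 0.82, and Fn1, fibronectin, by 0.79. Pdgfrb rose by 0.66 and S100a4 fell by 0.75. The 8 fibroblast markers, some of which are in this list too, had a summed linear level of 1110 to 1350 in controls, 714 to 930 with TNFα and 935 to 1290 with TGFß1. Such a sum is weighted toward the probes with the strongest signal, here S100a4 and Col1a2, and does not stand for each marker. With TNFα 4 of the 8 fell. With TGFß1 2 fell, among them Pdgfra by 2.00, and 1 rose. Their part in the changes of the transcription factors was not tested. Of the 3 adipocyte markers, all fell with TNFα, by 1.58 for Pparg and by at least 2.93-fold for Plin1, which no TNFα array had above background. Adipoq differed by -4.44, with 1 of 3 TNFα arrays above background. Pparg fell by 1.08 with TGFß1. The summed linear level of these markers was 11.9 to 15.5 in controls, 3.74 to 5.38 with TNFα and 5.9 to 7.7 with TGFß1, and its part in those changes was not tested either. Pparg had by far the strongest signal in this sum. With IL-1β and with IL-6/sIL-6Rα, limma called none of the genes of these 4 lists.

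For each factor called against controls, the 3 genes with the most similar levels over the 15 arrays were sought among 13486 others, by Pearson's r. These correlations span the 5 groups on shared slides and describe likeness only. For Snai1 they were Midn, Anxa8 and Fbln2 (r = 0.95 each), all of which had their lowest group mean with TNFα. For Snai2 they were Suox (0.98), Rab7b and Clec14a (0.97 each), lowest with TGFß1. For Twist1 they were Nfia (0.96), Ctbs and Tmem50b (0.95 each), lowest with TGFß1. For Twist2 they were Zfpm2 (0.97), Glrx and Rel (0.96 each), each highest with TNFα. For Zeb1 they were Frmd6 (0.91), Rdh13 and Antxr2 (0.90 each), highest with TGFß1.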

How the data were processed

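Per the labels and the file headers, RNA was labelled with Cyanine 3 and hybridised to 60-mer arrays (design build mm9). The authors scanned them and extracted spot intensities with Agilent Feature Extraction 10.7.3.1. The deposited intensity used here is the processed signal, corrected for background by that software and not normalized between arrays. The deposited table of the whole series held the same intensity values (largest difference 0).

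From these, spots marked as non-uniform or outliers were left out and the remaining spots of each probe were averaged on the log2 scale. The level subtracts the array's 75th percentile (507.5 to 682.9 as linear signal). Of the 56605 probes, 48.28% to 54.82% were well above background per array, and none was saturated. All 15 arrays entered 1 limma fit (limma 3.58.1, R 4.3.3) across all 29333 probes tested, with a mean per group, two-sided moderated tests and the Benjamini-Hochberg method. Each comparison was called at an adjusted p under 0.05 and a fold-change of 1.5, the thresholds of the study. A gene is represented by its probe with the highest mean signal. The fit was tested on simulated data with independent noise on each array. These held no slide or run effect, so the simulation does not show how the fit behaves where arrays deviate together. The number of arrays per group, 3, limits the precision.

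The 9 genes and the gene lists were chosen with earlier results of these data known. Named genes are the 9 with all probes, the 4 largest called changes per list and comparison, markers at background and the 3 genes most alike in level. Others complete a count of 5 or fewer and were chosen after their values were seen. Some genes of the lists are not reported here by name. Alternatives were other background corrections and scalings, other filters, the mean over probes, the slide, the run of label numbers, other variance settings, fewer arrays and each array left out. The runs were checked as a replicate block: with the slide removed, the correlation of deviations across probes was over 0.1 for all 30 pairs of arrays of a run from different groups (0.11 to 0.67) and for 2 of 60 pairs of other runs. Without removing the slide it was over 0.1 for 12 and 28 pairs. Promoter sequences are RefSeq's (GRCm38.p6).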

Additional observations from a re-analysis of the deposited data

Results flagged for a closer look

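Among the transcription factors and the lists of their partners, relatives and targets, TNFα and TGFß1 moved 3 genes in opposite directions, each called against controls and called in the direct comparison of the 2 cytokines. The direct difference is the gap between the same 2 changes in the same fit, so its call adds no separate support. The share of all probes that did so is not given, so this count has no background to stand against. Twist2 rose by 0.94 with TNFα, fell by 0.60 with TGFß1 and differed by 1.54 between them. Its TGFß1 value was -0.55 and not called with the slide in the model. Foxf1 differed by 1.30, also higher with TNFα (0.60, limma adjusted p = 0.0447) than with TGFß1 (-0.71). Jup differed by -3.43, with -1.68 for TNFα and 1.75 for TGFß1. Genes used to check the treatments were left out of this count, and some of them, such as Tnfaip3 (3.84 and -0.71), also went opposite ways.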

How the results depend on the processing

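Across the alternatives, no called log2 fold-change of a factor against controls changed sign, and all 7 kept their sign within each slide. Slide 1 held only TNFα 14 and TGFß1 7 of these cytokines, and slide 2 held only control 6. Each difference within a slide thus rests on a single array of a group, and those of slide 2 share control 6. Of 880 log2 fold-changes of the 8 factors refitted, 11 lost and 17 gained a call. Only the 7 called ones could lose a call. All losses fell on Twist1 with TNFα, called in 22 of 28 alternatives, and Twist2 with TGFß1, called in 23 of 28. The count of factors called with TNFα, 3, was 5 with the mean over the probes of a gene, 5 with the slide in the model, 6 with the runs as a replicate block and the slide, and 5 at an adjusted p under 0.05 alone. With the runs as a replicate block alone it was 4, and 5 with TGFß1, where the count without it was 4. The slide in the model removed the TGFß1 call of Twist2 and added no TGFß1 call. Leaving out 1 array at a time gave 2 to 4 with TNFα, 3 to 5 with TGFß1, 0 to 0 with IL-1β and with IL-6/sIL-6Rα, and 13 to 16 calls between cytokines against 15. The number of neighbouring groups that differed in the order of levels, 2 of 32, was 0 with the array median subtracted and 1 to 2 without 1 array; trying alternatives on it was chosen after seeing the data. Values within a slide alone are differences of means, for which no test was run, so they give no count of calls. With the array median subtracted, 29.8% of all TNFα calls were higher than in controls, against 40.5%.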
